A study of Drosophila melanogaster with 4 samples.

Results

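The white locus of the yw67 strain was read from 740 tiling probes of 50 bases that lay wholly within X:2660000-2715000 of the dm3 assembly, out of 298104 probes on X and 934962 genome probes on the array design that covers this arm. The probes were chosen by position alone. The window is centred on w, the gene known as white, and its probes started 66 bases apart at the median with a largest step of 181 bases. Values of 739 probes were available in both replicates, since 1 spot in replicate 2 carried the scanner's outlier mark.

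Chromatin was taken from imaginal wing discs of male 3rd instar larvae of a single genotype, Yellow white (yw67), whose labels give a yellow body and white eyes. Flies were kept at 25°C, tissue was fixed in 1.8% formaldehyde for 15 minutes, and sonicated chromatin of pooled discs averaged 400 bp. DNA recovered with an antibody against Myb carried Cy5 and the sonicated input DNA carried Cy3 on the same array, in 2 biological replicates with no dye swap. No other strain and no mock immunoprecipitation was analysed here, so neither the white allele nor the antibody signal could be set against an intact or a Myb-free control.

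The w gene encodes a subunit of an ABC transporter that carries pigment precursors into cells, and loss of it leaves the eye white. It is transcribed towards lower coordinates, away from its promoter at the higher end, and the Wari insulator is known from its 3′ side. Myb is a DNA-binding protein of the Myb-MuvB complex, which sits at many promoters of dividing cells, and insulators are DNA elements that separate neighbouring stretches of chromatin. The transcript table of the study places w-RA (FBtr0070490) at X:2684762-2690341, a span of 5580 bases. That table names no assembly and was read here as dm3, while the RefSeq gene in Release 6 is 288 bases longer, so the transcript ends carry an uncertainty of that order. RefSeq lists CG32795 as the next gene on the low side, past the 3′ end of w, and CG12498 on the high side. Positions below are given on dm3, and upstream means towards higher coordinates.

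The input channel was read first, to find DNA that the strain might lack. Input and immunoprecipitate levels are given as the log2 of the background-subtracted signal over the genome median of the same array and channel. The median input level over the window was -0.58 in replicate 1 and -0.55 in replicate 2, against X-wide medians of -0.77 and -0.83. The window's input signal was thus slightly above that of X at the median. Input levels of the window's probes were close to linearly related between replicates, with a Pearson correlation of 0.98 across probes, which share sequence and are not independent.

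No low-input run of 5 or more probes was found in the window. A probe was called low where its input lay under the 5th percentile of X in both replicates, at -4.11 and -4.33. The window held 24 such probes of 740, or 3.24%, while 3.95% of X probes were low in both. The longest run was 3 neighbouring probes, short of the 5 required, and X held 178 runs of 5 or more with a longest of 12. Both runs of 3 lay past the 3′ end of w, at X:2681411-2681598 and X:2682888-2683068. The first averaged -5.06 and -5.51 in the input and the second -5.07 and -5.52, and the next measured probes around each stood 210 and 221 bases apart. All 3 probes of each run were well above background in the immunoprecipitate of both replicates. In the input only X:2681411-2681460 was so in both replicates. X:2681483-2681532 and X:2682888-2682937 were not well above background in the input of either replicate, and the remaining probes of the runs only in that of replicate 1. A run of 2 stood at X:2697567-2697686 and another at X:2712319-2712436.

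The transcript of w itself held no low probe among 77, and no probe of it failed to stand well above background in the input of either replicate. Mean input over the transcript was -0.73 in replicate 1 and -0.65 in replicate 2. Over the 1000 bases around the start it was -0.58 and -0.69. The 5 probes from X:2690142 to X:2690459, which span the start, had input levels between 0.64 and 1.39 in replicate 1 and between 0.75 and 1.50 in replicate 2. These 5 were picked after their values were seen, and the next probe upstream, X:2690472-2690521, was at -0.55 and -1.18.

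One probe near the start was an exception. At X:2690771-2690820, 430 bases upstream, the immunoprecipitate stood at -8.99 and -8.39 and the input at -7.32 and -7.17, and none of the 4 values was well above background. The probe before it ended at 2690715 and the one after it began at 2690837, both with input near -2, so that a gap of at most 121 bases was left unread. In the window 7 probes were below this limit in both channels of both replicates, or 0.95%, against 0.74% of X probes. With a single strain on the arrays, missing DNA at 1 probe and poor hybridisation of its sequence cannot be told apart.

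The run rule was weak against the level of spots without a matching target. The array holds 28605 spots named RANDOM, taken here as random sequence, whose median input was -4.13 in replicate 1 and -3.87 in replicate 2. Only 50.3% and 41.5% of them lay under the low limits, so that a stretch of such probes would be broken by probes above the limit. A running median over 10 neighbouring probes was therefore added after the values had been seen, with the RANDOM median plus 0.5 as its limit. In the window 3 of 721 such stretches fell under the limit in both replicates, against 1.51% of stretches on X. They formed a single block of 12 probes at X:2711853-2712703, 851 bases long and 21512 bases upstream of the w start. Its median immunoprecipitate level was -3.59 and -3.54 and its median input -3.47 and -3.34. In the immunoprecipitate no stretch of the window fell under the corresponding limit, and 11 of the 12 probes were well above background there in both replicates. In the input 9 of the 12 were well above background in both replicates, and 4 of the 12 were called low. Within 2000 bases of the w start the lowest 10-probe input median was -1.50 in replicate 1 and -1.41 in replicate 2, far above the limit.

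**Figure D1:**
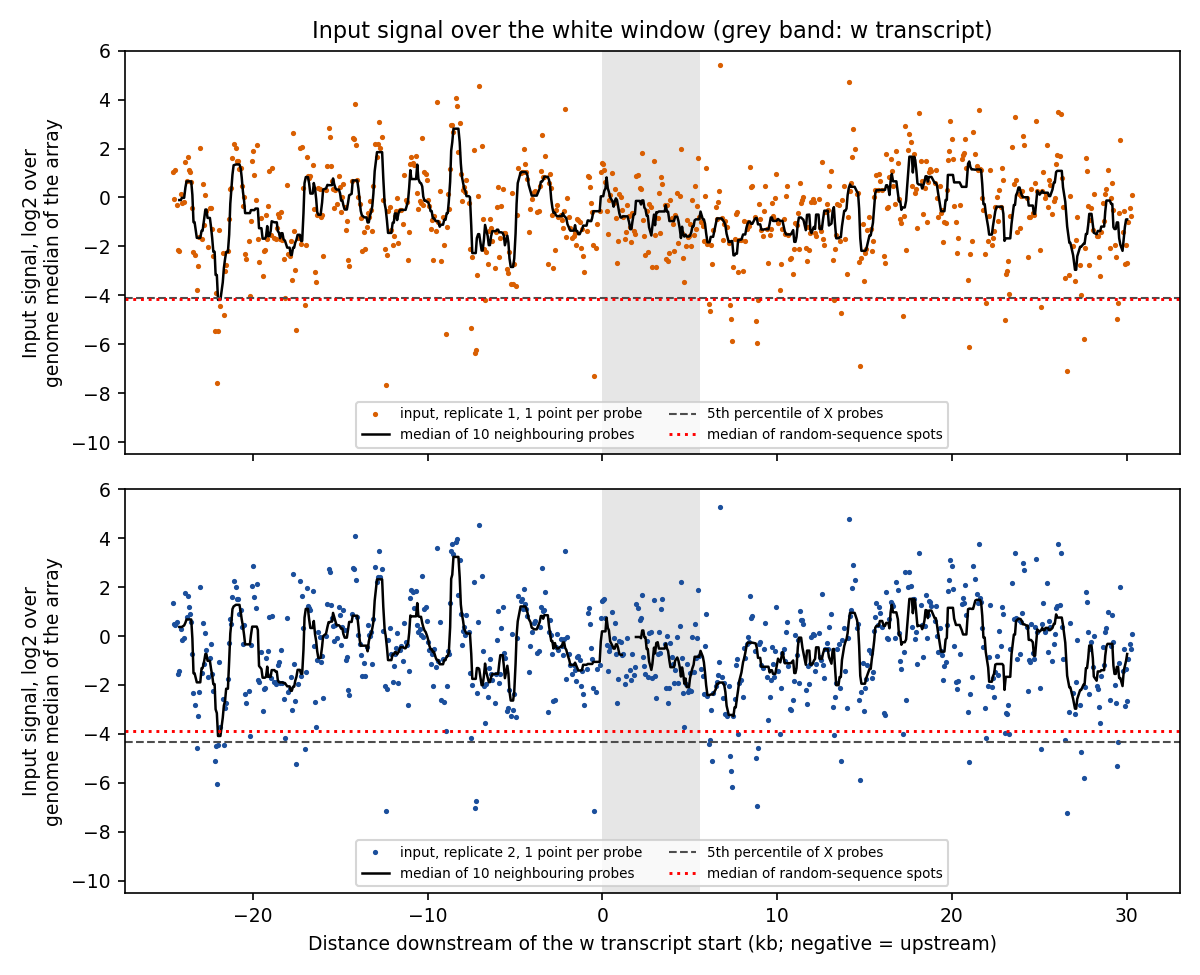
Input signal of the 740 window probes (log2 over the genome median of the array; dots) and its running median over 10 probes (line), for replicate 1 above and replicate 2 below, against distance from the w transcript start in kb. The running median stays above the RANDOM spots' median (-4.13 and -3.87, dotted) across the w transcript, and reaches it about 22 kb upstream, at the block of 12 probes.

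The Myb signal was then read as the log2 ratio of immunoprecipitate over input, centred on the genome median of each array, so that 0 is the genome median and not an absence of Myb. Over the whole window the mean ratio was -0.12 in replicate 1 and 0.02 in replicate 2 (-0.05 ± 0.10, SD, n = 2). Median ratios were -0.15 and -0.02 in the window, against 0.07 and 0.14 over X. With both replicates above 0 stood 26.8% of window probes and 42.6% of X probes. The window was thus below X in both replicates at the median. The sign of its own mean depends on the centring, since it stood at 0.10 when all ratios were centred on the mode, which raises X alike.

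Tested probe by probe against 0 with limma over all genome probes (Benjamini-Hochberg, two-sided, adjusted p under 0.05), 18 of 739 window probes were enriched, or 2.44%, against 10.0% of X probes. Depleted probes numbered 16, or 2.17%, against 1.75% of X probes. The split was 46 enriched to 10 depleted when centred on the mode, 8 to 17 when centred on the X median, 30 to 34 after normexp background correction and 13 to 3 in the authors' normalised table. The enriched probes were not spread evenly. Of the 18, 14 lay among the 67 probes of the 5 kb past the 3′ end of w, 1 lay in the transcript and 2 lay in the 2 kb upstream of the start. The 5 kb span and the 2 kb upstream span were not among the parts set beforehand. The 2 kb past the 3′ end, which was, held 6 enriched probes of 26.

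Binning to 1 kb gave the same picture at lower resolution. Of 55 bins in the window, 5 were enriched in limma, or 9.09%, where 23.0% of X bins were, and 2 were depleted, or 3.64%, where 3.24% of X bins were. The split of enriched to depleted bins was 7 to 0 when centred on the mode, 2 to 9 when centred on the X median and 5 to 5 after normexp. Of the 5 enriched bins, 4 began between X:2680000 and X:2684000, and the fifth was X:2691000-2691999, upstream of the start. The 20 bins at lower coordinates than these held no enriched bin. Both replicates were above 0 in 12 bins, below 0 in 27 and of opposite sign in 16.

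The highest bin was X:2682000-2682999, past the 3′ end of w on the side of CG32795. Its ratio was 0.89 in replicate 1 and 0.78 in replicate 2 (0.84 ± 0.08, SD, n = 2; limma adjusted p = 5.8e-05), higher than 93.4% of X bins. Both channels of this bin lay below the genome median. Its input was -2.23 and -2.26 and its immunoprecipitate -1.39 and -1.56 in replicates 1 and 2. The bins on its high side, up to the end of the transcript, were less even between replicates. X:2684000-2684999, which holds the transcript's 3′ end, had ratios of 0.40 and 0.99 (limma adjusted p = 0.0010). X:2683000-2683999 had -0.14 in replicate 1 and 1.48 in replicate 2, a spread larger than its mean of 0.67. It passed limma with an adjusted p = 0.0041 because the spread is moderated over all bins, and replicate 1 on its own gave no enrichment there. Among its 12 probes, X:2683563-2683612 had the lowest ratio in replicate 1, at -2.28, and was at -0.61 in replicate 2. The bin mean without this probe was not computed.

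The lowest 3 bins lay on the far low side of the window. X:2666000-2666999 had ratios of -0.50 and -0.44 (limma adjusted p = 0.031) and X:2665000-2665999 had -0.58 and -0.30 (limma adjusted p = 0.047). X:2669000-2669999 averaged -0.42 with ratios of -0.71 and -0.13, and missed the threshold (limma adjusted p = 0.061). Input at the first 2 of these stood at 0.64 and 1.00 in X:2666000-2666999 and at -0.45 and -0.46 in X:2665000-2665999. Low ratios there did not coincide with low input.

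**Figure D2:**
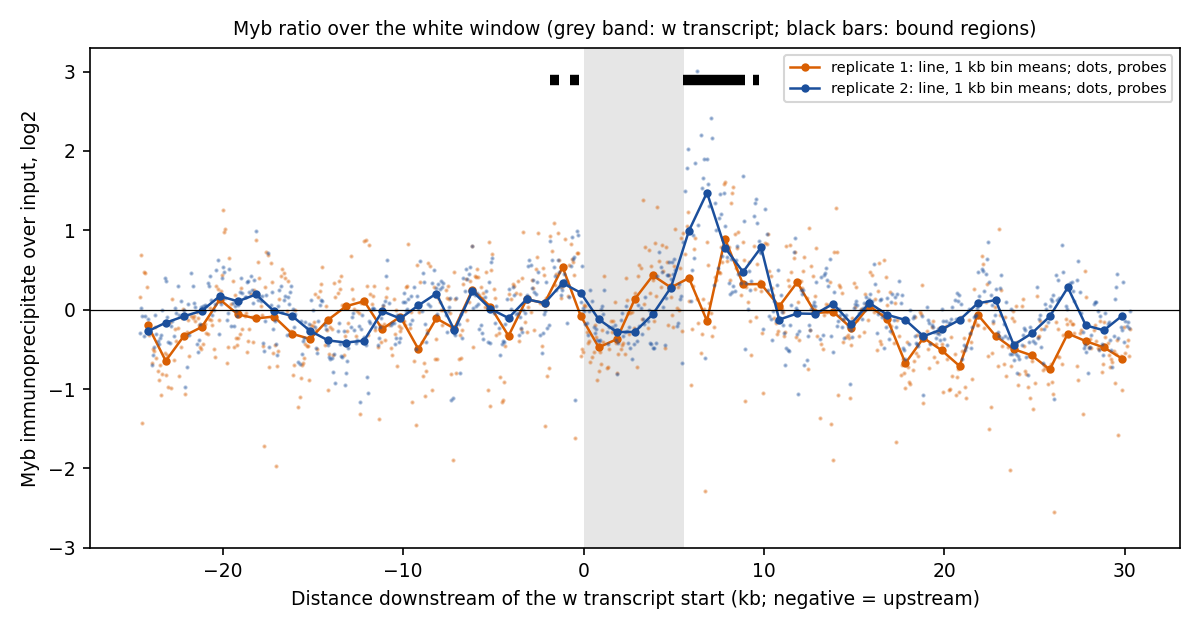
Myb immunoprecipitate over input (log2, centred on the genome median) for probes (dots) and 1 kb bins (lines) in replicates 1 and 2, against distance from the w transcript start in kb, with the 4 bound regions as black bars. Both lines rise past the 3′ end of w, where replicate 2 reaches 1.48 in a bin in which replicate 1 is at -0.14. Upstream of the start both are above 0 in X:2691000-2691999, while X:2690000-2690999 is at -0.08 in replicate 1 and 0.21 in replicate 2.

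By parts of the locus, the 3′ flank stood out in replicate 2 far more than in replicate 1. The 2 kb past the 3′ end had a mean ratio of 0.13 in replicate 1 and 1.34 in replicate 2 over 26 probes (0.74 ± 0.85, SD, n = 2). These 26 include X:2683563-2683612, with ratios of -2.28 and -0.61, and their medians were 0.13 and 1.42. Ratios were above 0 at 17 of the 26 probes in replicate 1 and at 25 in replicate 2. The transcript averaged 0.02 and -0.07 over 76 probes (-0.03 ± 0.07), and the 1000 bases around the start averaged -0.31 and 0.09 over 13 probes (-0.11 ± 0.28). The mean around the start was -0.0056 without probes whose input was not well above background, among them the probe of very low signal. Centred on the mode, the transcript and the start turned to 0.12 and 0.04. The rest of the window averaged -0.15 and -0.02. The flank exceeded the transcript by 0.11 in replicate 1 and by 1.41 in replicate 2, a difference of the same sign in both but no larger than their spread. The parts were described without a test, and an exact two-sided sign-flip test of 2 replicates cannot go below p = 0.5.

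**Figure D3:**
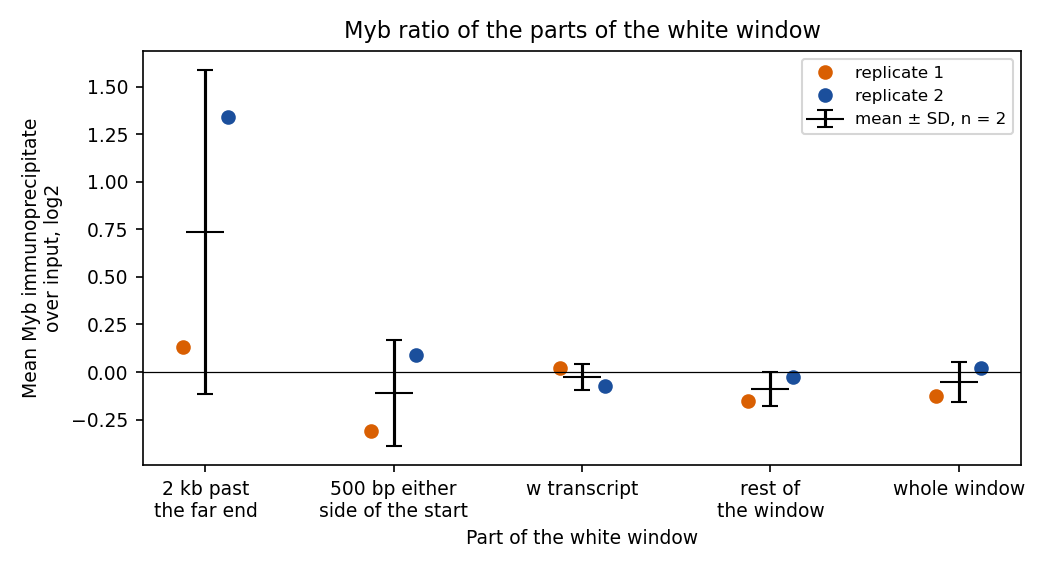
Mean Myb ratio (log2) of 5 parts of the white window in replicates 1 and 2, with the mean and SD of the 2 replicates as a bar. The 2 kb past the 3′ end is at 0.13 and 1.34, and the other parts lie between -0.31 and 0.09.

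None of the transcript's 1 kb bins from X:2685000 to X:2689000 passed limma, and the values along the gene are given as a description. In the first kb downstream of the start it was -0.44 in replicate 1 and -0.16 in replicate 2, and in the second -0.36 and -0.25. The third kb was at -0.20 and -0.29, and the fourth was of opposite sign in the replicates, at 0.43 and -0.18. In the kb from 4 to 5 kb downstream it was 0.34 and 0.31, and in the next, which crosses the 3′ end, 0.44 and 0.57. The ratio was thus above 0 in both replicates over the last 2 of these steps and below 0 in both over the first 3, with no test of the difference. Upstream of the start the first kb was at 0.14 and 0.35, and the second at 0.41 and 0.35.

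A neighbourhood rule written for this work after the distance and count criteria of the study's methods, with its own p-values and applied to the mean of both replicates, placed 4 Myb-bound regions in the window among 4093 on X. They covered 4716 bases and held 65 of the 740 probes, or 8.78%, where 21.5% of X probes lay in regions. The rule calls a region where at least 4 probes, each within 300 bp of the next, have a mean p with a neighbour under 0.05 against a normal centred on the mode. None of the regions covered the w start.

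The longest region ran over X:2681411-2684826, 3416 bases that end just inside the 3′ end of w and extend away from the gene. It began on the low-input run X:2681411-2681598 and held 7 low-input probes. After normexp, or with only probes whose input was well above background, it broke up, with separate regions starting at X:2681739 and X:2683209. On X 199 regions were at least as long, where the median length was 706 bases. Replicate 1 averaged 0.46 and replicate 2 averaged 1.08 over its 46 probes, with values above 0 in each replicate at 37. The ratio of 0.77 was near the median of X regions, 0.77. Both channels lay below the genome median, with input of -1.61 and -2.04 and immunoprecipitate of -1.22 and -1.04 in replicates 1 and 2. Replicate 1 alone gave 2 shorter regions inside it, X:2681739-2682667 and X:2684117-2684826, and replicate 2 alone gave X:2681411-2681922 and X:2682358-2684826. A short region at X:2680617-2680930 had ratios of 0.37 and 1.18 over 5 probes and was called in replicate 2 but not in replicate 1. Its input was -1.41 and -1.97 and its immunoprecipitate -1.09 and -0.87.

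Upstream of the start, the replicates of the other pair of regions lay closer together. X:2690608-2691084, from 267 to 743 bases upstream, had ratios of 0.33 in replicate 1 and 0.51 in replicate 2 over 7 probes (0.42 ± 0.12, SD, n = 2), of which 6 were above 0 in both. The seventh was the probe of very low signal described above, and without it the region stood at 0.66 and 0.78 (0.72 ± 0.09), close to the region past the 3′ end. X:2691693-2692201, from 1352 to 1860 bases upstream, had ratios of 0.73 and 0.54 over 7 probes (0.64 ± 0.13), all above 0 in both. Replicate 2 alone placed regions at both positions and replicate 1 alone placed none. Input was below the genome median at both, with -1.83 and -1.98 in the first and -1.38 and -1.26 in the second. The immunoprecipitate was below it as well, at -1.55 and -1.55 in the first and -0.71 and -0.80 in the second. Only 1 probe of each was enriched in limma, and the probe of very low signal counted among the depleted ones, with ratios of -1.61 and -1.14 from signals not well above background.

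Past the 3′ end both channels differed between replicates, the input by more. In X:2683000-2683999 the immunoprecipitate averaged -0.85 in replicate 1 and -0.34 in replicate 2, a difference of 0.51, while the input averaged -0.65 and -1.73, a difference of -1.08. On X 33 of the 1 kb bins, or 0.15%, had an input that fell by as much in replicate 2, and 2 had a ratio that differed by as much in this direction, this bin included in both counts. The input of replicate 2 was lower by more than 1 at 8 of the 26 probes past the 3′ end, at none of the transcript and at 11 of the whole window, against 2.96% of X probes.

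Over these 26 probes the median difference of replicate 2 minus replicate 1 was 0.30 in the immunoprecipitate, against 0.09 on X, and -0.58 in the input, against -0.01 on X. Single probes show the sizes. At X:2683209-2683258 the immunoprecipitate was -1.61 in replicate 1 and -1.19 in replicate 2, and the input was -1.22 and -3.28. At X:2684049-2684098 the immunoprecipitate was -2.63 and -2.20 and the input -2.71 and -5.13, the last value not well above background. Ratios at this probe were 0.13 in replicate 1 and 3.00 in replicate 2. On the outer sides of this stretch some probes were enriched in limma and others were not. X:2682484-2682533 had ratios of 1.61 and 1.05 with input of -1.74 and -1.90 (limma adjusted p = 0.0099), and X:2684509-2684558 had ratios of 1.23 and 2.02 (limma adjusted p = 0.0059), while X:2684381-2684430 had -0.95 and 0.10. The part of either channel's difference in the bound region was not tested.

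**Figure D4:**
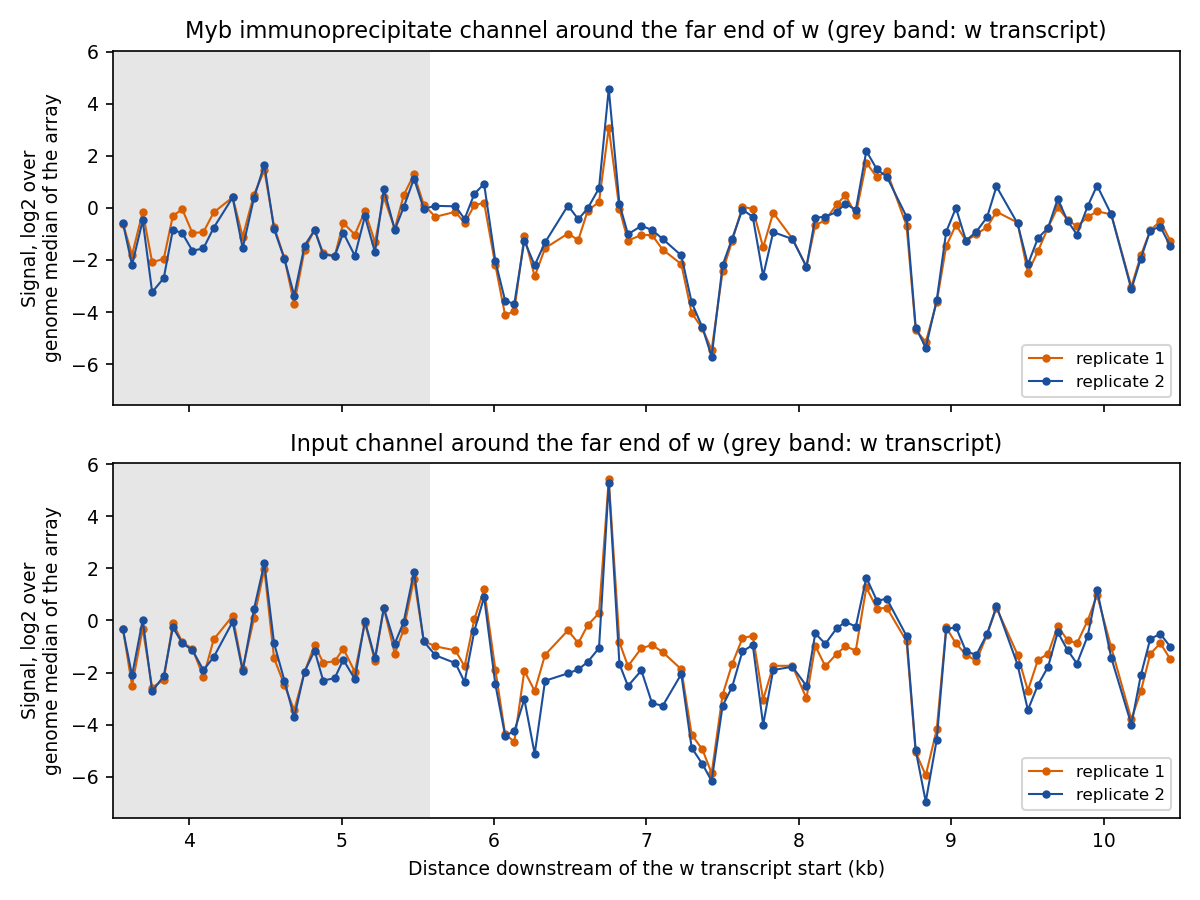
Signal of the Myb immunoprecipitate (top) and of the input (bottom), log2 over the genome median of the array, for the probes around the 3′ end of w in replicates 1 and 2, against distance from the transcript start in kb. Between about 6 and 7 kb replicate 2 lies on average under replicate 1 in the input, as at the probe with input of -2.71 and -5.13. At X:2684183-2684232 replicate 2 lies above, with input of -4.66 in replicate 1 and -4.26 in replicate 2. In the immunoprecipitate replicate 2 lies on average above replicate 1, as at X:2683831-2683880 with -0.99 in replicate 1 and 0.09 in replicate 2.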

How the data were processed

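Genomic tiling arrays (Agilent, dm3 design) of 2 biological replicates were analysed. The intensity columns are the processed signals of the deposited scanner files, background-subtracted and dye-normalised per the file headers by Feature Extraction (11.5.1.1). The deposited log10 ratio of the same spots equalled the ratio of these signals within 0.001 at 99.7% of spots, and the series table holds the authors' log2 ratios, used as an alternative for 731 window probes. Ratios were taken as log2 of Cy5 over Cy3, centred on each array's genome median with no loess, and outlier spots were left out. limma (3.58.1, R 4.3.3) was fitted with an intercept over all genome probes or over 1 kb bins with at least 5 probes. The limma fit, the region rule and both low-input rules were tested on simulated data. There the run rule recovered few planted gaps and the 10-probe median most of them. No gap shorter than 10 probes was planted, so recovery of shorter gaps was not tested. The pooled discs number 1000 in the labels, and the precision is limited by 2 arrays. The limma p-values set a mean ratio against a spread moderated over all probes or bins, and hardly reflect the replicate spread of a single bin. The standard error was 0.17 at X:2682000-2682999, with an SD of 0.08, and 0.19 at X:2683000-2683999, with an SD of 1.14. Replicates share dyes, so a dye effect cannot be told apart from enrichment. The direction of w is background knowledge, since the gene table used here gives no strand. The gene, window and rules were chosen with earlier results of these data known. Named positions are the low-input runs of more than 1 probe, the low probe beside the start, the bound regions and the 3 highest and 3 lowest bins. The low probe, the steps along the gene, the block upstream and single probes of the 3′ flank were picked after their values were seen. The 5 kb past the 3′ end and the 2 kb upstream, used to count enriched probes, were not set beforehand.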

Additional observations from a re-analysis of the deposited data

How the results depend on the processing

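Centring on the mode raised every probe by about 0.15 and centring on the X median lowered it by about 0.10, and calls moved with these. Centred on the mode, the mean ratio was 0.10 over the window, 0.12 over the w transcript and 0.04 around its start, which stood at -0.0056 with only probes of input well above background. Centred on the X median, the transcript was at -0.13. Past the 3′ end the mean stayed above 0, between 0.47 after normexp and 0.89 centred on the mode. Without 1 replicate the ratio ranged between -0.12 and 0.02 for the window, -0.07 and 0.02 for the transcript, -0.31 and 0.09 around the start and 0.13 and 1.34 past the 3′ end, where replicate 2 decides the size. Enriched probes numbered 46 centred on the mode, 8 on the X median and 30 after normexp, against 18, and depleted probes 10 on the mode, 34 after normexp and 3 in the authors' table, against 16. Enriched bins numbered 2 on the X median, against 5 of 55, and 3 of 28 at 2 kb, or 10.7% against 9.09%. Depleted bins numbered 0 on the mode, 9 on the X median, 5 after normexp, against 2 of 55, and 1 of 110 at 500 bp and 1 of 28 at 2 kb. A mean p under 0.001 left 0 regions, and single replicates gave 2 and 9, against 4. Centring and leaving out low-input runs of 5 or more probes cannot move the regions. Among the other 8 alternatives, 7 placed a region overlapping the one at the 3′ end of w, in pieces in some. Each of the other 3 was overlapped in 5, and none placed one on the w start. Keeping outlier spots, counted among the 8, restored only X:2688792-2688841 in the window, outside every region. It could hardly move the regions and left the 4 starts unchanged. In the authors' table, and with only probes of input well above background, a single region starting at X:2690608 overlapped both upstream regions. The longest low-input run was 2 to 4 probes throughout, and the 3 low 10-probe stretches became 0 in the immunoprecipitate. A single array leaves no residual degrees of freedom, so probe and bin counts had no value without a replicate. No low-input run of 5 or more probes lay in the window, so leaving out such runs changed none of its part means. No paired analysis was possible because a single group was measured and each ratio already sets both channels of 1 array against each other. With 2 arrays, small ratios such as those around the start cannot be resolved.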

Other observations

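Input signal varied along the window far beyond the replicate difference. Of the 740 probes, 3 lay above the 99th percentile of X input in both replicates. The highest was X:2683563-2683612, inside the bound region past the 3′ end of w, with input of 5.41 in replicate 1 and 5.27 in replicate 2 and ratios of -2.28 and -0.61, the opposite sign to its neighbours. X:2676218-2676267 had input of 4.73 and 4.78, and X:2697371-2697420 had 4.55 and 4.53. Around X:2698000-2698999 the 1 kb bin mean of the input was 1.83 and 1.94, with a Myb ratio of -0.11 and 0.20.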
